A study of Mus musculus with 8 samples.

Results

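The genes described here are 43 that build and feed the DNA replication fork: the proteins that license origins, the replicative helicase, the polymerases, the sliding clamp and its loader, the proteins that cover single strands and join fragments, and the enzymes that supply deoxynucleotides. They are the rows of the deposited table of 55401 genes whose Ensembl identifier, without its version, maps to these symbols in GENCODE M21. Each symbol matched 1 row, and all 43 were among the 24005 genes with enough counts to be tested. Their expression was compared between 4 RNA sequencing libraries labelled KO, from Tet1-/- mice, and 4 labelled WT, from Tet1+/+ mice. All 8 libraries were made from total RNA of prospermatogonia, which are the germ cells of a male fetus, collected at E17.5 (in embryonic days), and all carried batch label 1. The sources used here do not give how the cells were isolated, the kind of Tet1 allele, the strain, whether animals were pooled or whether replicates came from separate animals. The p-values therefore measure the spread between these libraries, which may be technical in part.

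Replication begins with licensing: the origin recognition complex, CDC6 and CDT1 load the MCM ring onto DNA before S phase, and geminin holds CDT1 back afterwards. CDC45 and the GINS complex then turn the ring into an active helicase, primase and DNA polymerase alpha start each strand, polymerases delta and epsilon extend it on the PCNA clamp, and FEN1 and DNA ligase 1 join the fragments. Ribonucleotide reductase, thymidylate synthase and thymidine kinase provide the building blocks. Many of these genes are transcribed at the border of G1 and S phase by E2F factors, which the retinoblastoma proteins restrain in resting cells. Male germ cells of the fetal mouse testis leave the mitotic cycle some days before birth and rest in a G1-like arrest until after birth. The title of the series asks about roles of TET1, an enzyme that oxidises methylated cytosine, which do not rest on catalysis.

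Library totals ran from 13820764 to 20115250 counts, so 3 counts, the most that a count of 0 allows, came to between 0.149 and 0.217 CPM (counts per 1000000 counts of a library), and this covers counting error only. Levels are given as CPM with TMM scaling, which assumes that most genes do not differ, always in the order of replicate numbers 1 to 4. Tet1, the targeted gene, had 129, 145, 75.8 and 147 CPM in the libraries labelled KO, against 30.3, 30.2, 32.8 and 34.2 CPM in those labelled WT, a log2 difference of 1.97 (SE 0.18, adjusted p = 3.03e-06). Its level thus goes against the labels, and a count over a whole gene cannot tell an intact transcript from one that lacks an exon. Every direction given here rests on the labels as deposited. Summed markers of germ cells were 2037 to 2496 CPM in the libraries labelled KO and 2234 to 2576 CPM in those labelled WT, and 3 of the 8 passed as higher and 2 as lower. These sums hide opposite shifts of single markers. Pou5f1 had 83.7 to 156 CPM with the KO label and 16.1 to 56.9 CPM with the WT label. Mael had 166 to 219 CPM with the KO label and 381 to 446 CPM with the WT label. The library KO 4 stood apart: its 6 Leydig cell markers summed to 1757 CPM, against 13.7 to 19.9 CPM in the other 3 labelled KO and 14.6 to 31.3 CPM in those labelled WT. Of these markers 5 were tested and 4 passed as higher; Cyp17a1 had 862 CPM in KO 4, against 1.55 to 4.70 CPM in the other 3, and Insl3 had a count of 0 in KO 1, KO 2 and WT 4. Sertoli cell markers summed to 78.4 CPM in KO 4, 18.2 to 18.5 CPM in the other 3 labelled KO and 10.9 to 18.9 CPM in those labelled WT, with 3 of the 6 tested higher and 1 lower. Most of the sum in KO 4 was Inha, at 58.3 CPM, against 2.21 to 2.36 CPM in the other 3 labelled KO. Markers of interstitial and peritubular cells summed to 87.2 to 109 CPM with the KO label and 85.5 to 102 CPM with the WT label (2 of 7 higher, 1 lower). Endothelial markers summed to 55.9 to 69.8 CPM with the KO label and 57.1 to 68.8 CPM with the WT label (of 4 tested, 1 higher and 3 lower). Those of macrophages were 5.73 to 11.2 CPM with the KO label and 13.6 to 16.2 CPM with the WT label (3 of 4 lower), and those of erythroid cells 12.8 to 21.4 CPM with the KO label and 18.2 to 23.0 CPM with the WT label (of 4, 1 higher and 1 lower). Without KO 4, the sums with the KO label were 5.73 to 8.49 CPM for macrophages and 12.8 to 13.4 CPM for erythroid cells, all below those with the WT label. These gaps rest largely on 1 gene each. Over all libraries Fcgr1 had 0.113 to 1.03 CPM with the KO label and 5.11 to 7.84 CPM with the WT label. Alas2 had 6.98 to 11.8 and 16.6 to 20.8 CPM. Of the other macrophage markers, Adgre1 was lower too, at 0 to 0.590 CPM with the KO label and 1.10 to 2.01 CPM with the WT label. Csf1r was mostly lower, at 1.11 to 1.93 and 1.90 to 3.49 CPM. Not every marker fell, with Cd68 at 4.20 to 6.30 and 2.03 to 4.98 CPM. Among erythroid markers Hba-a1 had 1.03 to 2.06 and 0.232 to 1.04 CPM. In bulk RNA, fewer cells of a type and less RNA per cell cannot be told apart. The part of these other cells in the differences was not tested by cell type. With the mean level of all their markers as a covariate, 36 replication genes were higher and 1 was lower. That mean pools lists that moved in opposite directions, so it cannot settle the part of these cells. Calls on the replication genes that were lost without KO 4 are named beside them.

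The rule that chose the genes did not use promoter sequence, but the motifs were chosen with earlier results of these data known. RefSeq promoter windows (GRCm38.p6, 250 bases before to 50 after an annotated start) were found for 35 of the 43 genes, 43 windows in all, since 6 genes have more than 1. The E2F site was searched on both strands as the words TTTCCCGC, TTTCGCGC, TTTGCCGC and TTTGGCGC, which can overlap each other. At least 1 word stood in a window of 13 of the 35 genes (37.1%), against 704 of the 27025 genes in the promoter table (2.60%). The box CCAAT, which NF-Y binds, was in windows of 23 of the 35 (65.7%) and of 41.1% of all genes, and the GC box GGGCGG in 26 (74.3%) and 38.2%. The genes of the promoter table were not matched to the 35 for expression or base content, so these shares are no test. A match is a run of letters and not a shown binding site. For each gene 1 stretch of 36 bases around a match is printed on the gene's own strand, with the E2F words in capitals. The capitals are alike across steps because the search was for those words, so the stretches show only where the words lie.
Cdc6, chr11:98907999-98908034, plus strand: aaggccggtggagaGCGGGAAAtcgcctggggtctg
Orc1, chr4:108579413-108579448, plus strand: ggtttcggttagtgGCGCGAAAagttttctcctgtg
Cdt1, chr8:122568029-122568064, plus strand: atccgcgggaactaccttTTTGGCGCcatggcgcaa
Mcm3, chr1:20820263-20820298, minus strand: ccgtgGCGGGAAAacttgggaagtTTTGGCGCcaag
Mcm5, chr8:75109344-75109379, plus strand: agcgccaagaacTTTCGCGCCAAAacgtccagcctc
Mcm6, chr1:128359792-128359827, minus strand: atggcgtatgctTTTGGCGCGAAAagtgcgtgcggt
Mcm7, chr5:138171846-138171881, minus strand: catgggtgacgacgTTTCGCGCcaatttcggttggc
Gins3, chr8:95633504-95633539, plus strand: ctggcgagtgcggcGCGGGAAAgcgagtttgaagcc
Pola1, chrX:93632272-93632307, minus strand: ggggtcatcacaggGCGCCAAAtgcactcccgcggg
Pold1, chr7:44548766-44548801, minus strand: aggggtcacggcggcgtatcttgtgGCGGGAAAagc
Pole2, chr12:69228159-69228194, minus strand: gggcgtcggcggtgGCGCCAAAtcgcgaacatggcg
Rfc3, chr5:151651197-151651232, minus strand: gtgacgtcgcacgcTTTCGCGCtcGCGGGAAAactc
Lig1, chr7:13278838-13278873, plus strand: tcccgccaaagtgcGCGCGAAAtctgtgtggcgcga

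In Mcm5 and Mcm6 a pair of words on opposite strands overlap, in Mcm7 the word overlaps a CCAAT box, and in Mcm3 and Rfc3 both words of the window are seen. In Mcm3, Cdt1, Pold1, Pole2, Lig1 and the Mcm7 match shown, the words begin after the annotated start, and the second Rfc3 word begins at or next to it. Another Mcm7 word, not printed, begins at position -165 from the start. The whole Mcm6 window is shown next as an example with 2 separate runs of E2F words, which Mcm3, Mcm7 and Rfc3 also have. The Rrm2 window is shown because Rrm2 had the largest difference of the 43 genes and no such word.
Mcm6, chr1:128359656-128359955, minus strand: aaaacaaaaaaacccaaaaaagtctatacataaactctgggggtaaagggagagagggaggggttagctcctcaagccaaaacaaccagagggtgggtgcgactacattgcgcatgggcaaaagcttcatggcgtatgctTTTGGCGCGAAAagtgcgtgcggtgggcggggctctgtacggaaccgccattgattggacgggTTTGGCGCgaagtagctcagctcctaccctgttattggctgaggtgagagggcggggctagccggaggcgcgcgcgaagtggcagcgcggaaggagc
Rrm2, chr12:24708004-24708303, plus strand: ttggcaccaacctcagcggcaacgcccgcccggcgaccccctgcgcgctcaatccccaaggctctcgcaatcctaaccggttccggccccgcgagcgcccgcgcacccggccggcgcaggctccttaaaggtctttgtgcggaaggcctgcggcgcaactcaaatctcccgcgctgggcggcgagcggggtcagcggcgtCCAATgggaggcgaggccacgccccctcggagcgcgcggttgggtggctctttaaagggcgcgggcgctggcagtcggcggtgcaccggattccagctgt

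The capitals mark E2F words in Mcm6 and the CCAAT box in Rrm2. Of the 13 genes with an E2F word, all but Pole2 were higher with the KO label (12), with a median log2 difference of 0.95 and a range from -0.10 to 2.19. Of the 22 genes without one, 18 were higher, with a median of 0.82 and a range from 0.19 to 2.97. Their ranges overlap, and whether the groups of genes are unlike was not tested.

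At each of the 6 steps most replication genes had more RNA in the libraries with the KO label. Of the 43, 36 were higher (83.7%), 1 was lower and 6 did not pass (edgeR, adjusted p under 0.05 by Benjamini-Hochberg over all genes tested). Of all 24005 genes, 25.3% passed as higher and 28.2% as lower. Within the abundance range of the 43 genes these shares were 32.9% and 26.4% of 17141 genes, whose median log2 difference was 0.11. The median log2 difference, KO minus WT, was 0.87 over the 43 genes and -0.05 over all genes tested. A log2 difference of 1 or more was passed by 18 of the 43, against 8.78% of all genes and 10.4% of those in the same abundance range. All 4 libraries labelled KO lay above all 4 labelled WT for 35 of the 43 genes, against 23.2% of all genes and 30.1% in that range, and below for 1, against 25.1% and 23.9%. The balance over all genes depended on the scaling, from 6083 higher and 6770 lower with TMM to 4033 and 8882 with upper-quartile scaling and 3952 and 7640 with scaling on ribosomal protein genes. These moved the median of all genes by -0.24 and -0.18, and with cyclic loess that median was 0.02. For the 43 genes upper-quartile scaling gave a median of 0.63 with 31 higher and 1 lower, ribosomal protein scaling 0.69 with 31 and 1, and cyclic loess 0.70 with 32 and 1. Without KO 4, 35 were higher, with a median of 0.90, and Prim2 (adjusted p = 0.0642) and Lig1 (0.0667) no longer passed.

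**Figure D1:**
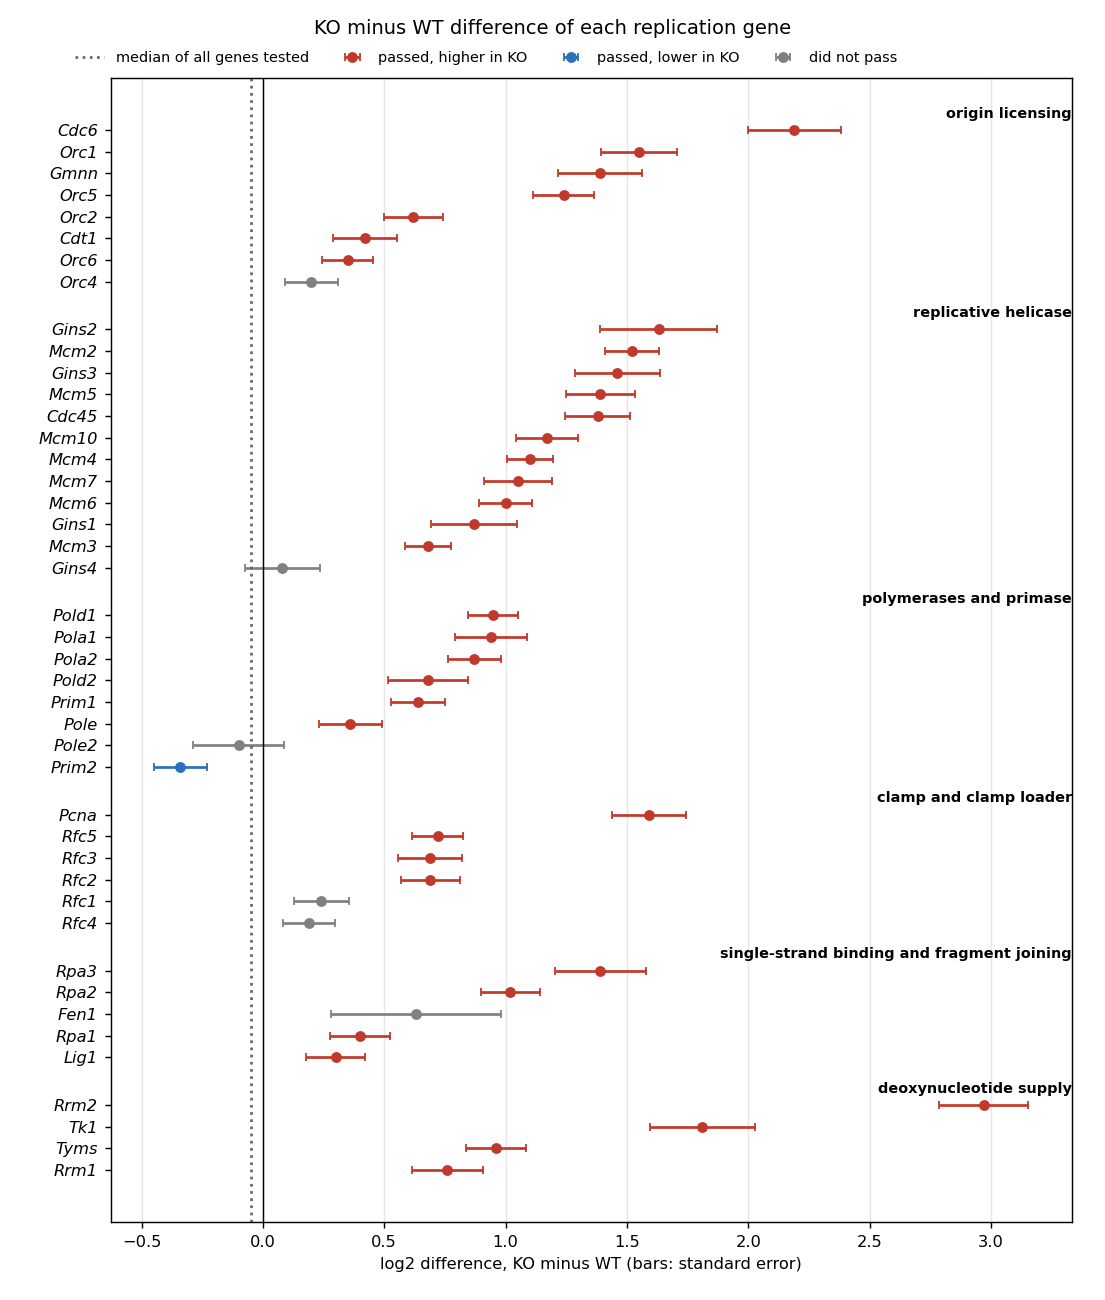
The log2 difference, KO minus WT, of each of the 43 genes with its standard error, grouped by step. Of the points 36 are red (passed, higher in KO), 1 is blue (Prim2, lower) and 6 are grey (did not pass), and the dotted line is the median of all genes tested (-0.05).

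Together the 43 genes took 0.391% to 0.418% of all counts in the libraries labelled KO and 0.247% to 0.292% in those labelled WT. Their summed level was 4456, 4524, 4124 and 4111 CPM in the libraries labelled KO, against 2505, 2236, 2856 and 2696 CPM in those labelled WT. The sums of the groups did not overlap. Among the libraries labelled WT, WT 2 had the lowest level for 28 of the 43 genes and WT 3 the highest for 22. Among those labelled KO, KO 3 was lowest for 21, and KO 1 and KO 2 were highest for 17 each.

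**Figure D2:**
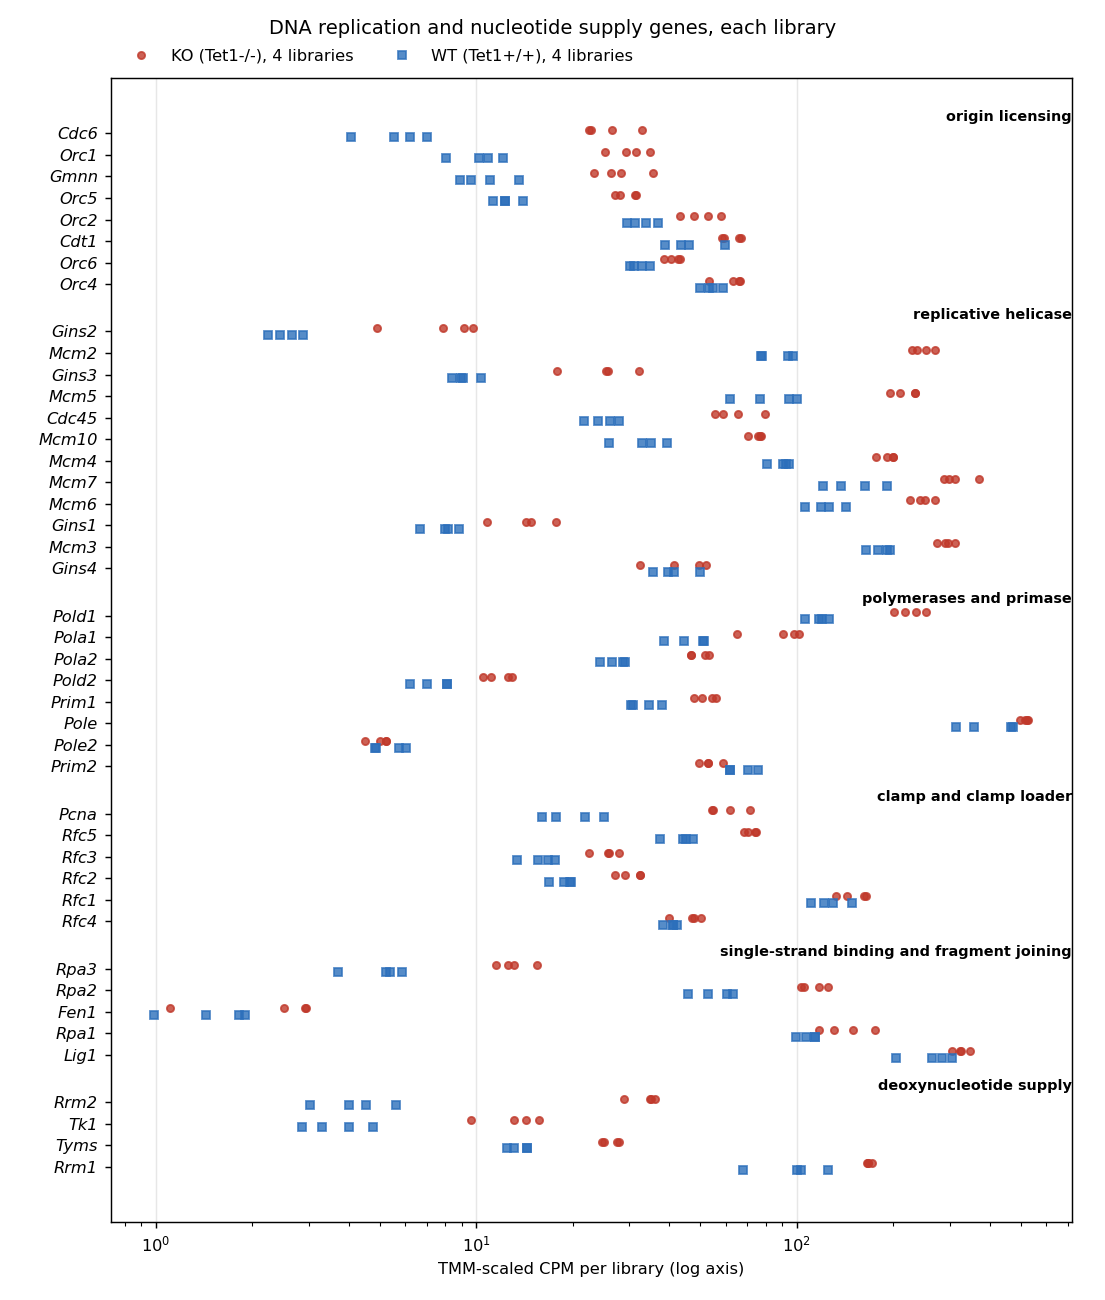
The TMM-scaled CPM of each gene in each library on a log axis, with the 4 libraries labelled KO as red circles and the 4 labelled WT as blue squares, grouped by step. For 35 of the 43 genes every red circle lies to the right of every blue square, and for Prim2 every circle lies to the left.

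All 4 genes of deoxynucleotide supply rose, with a median log2 difference of 1.38. Rrm2 (ENSMUSG00000020649.11, chromosome 12, 24708241 to 24714146, plus strand), which encodes the small subunit of ribonucleotide reductase and whose level in cycling cells follows S phase, had 36.0, 34.8, 28.9 and 35.1 CPM in the libraries labelled KO, against 3.02, 4.01, 5.60 and 4.53 CPM in those labelled WT. The groups were far apart, and the log2 difference was 2.97 (SE 0.18, adjusted p = 1.86e-07), the largest of the 43 genes. The large subunit gene Rrm1 (ENSMUSG00000030978.10, chromosome 7, 102441695 to 102469771, plus strand) had 167, 172, 166 and 165 CPM in the libraries labelled KO, against 99.8, 68.0, 125 and 103 CPM in those labelled WT. Here the libraries labelled KO were nearly alike and those labelled WT were spread, with WT 2 lowest, and the log2 difference was 0.76 (SE 0.15, adjusted p = 0.000824). Tk1, the cytosolic thymidine kinase that salvages thymidine, had 15.6, 9.59, 13.1 and 14.3 CPM in the libraries labelled KO, against 4.76, 2.85, 3.99 and 3.30 CPM in those labelled WT. Its groups did not overlap, with KO 2 and WT 2 the lowest of each, and it rose by 1.81 on the log2 scale (SE 0.22, adjusted p = 2.29e-05). Tyms, the thymidylate synthase gene, had 27.5, 24.7, 25.1 and 27.9 CPM in the libraries labelled KO, against 14.3, 12.4, 14.4 and 13.1 CPM in those labelled WT, a rise of 0.96 on the log2 scale (SE 0.12, adjusted p = 3.91e-05). A pseudogene of Tyms is annotated, so some reads may not be assigned apart.

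Of 8 licensing genes, 7 rose and 1 did not pass, with a median log2 difference of 0.93. Cdc6 (ENSMUSG00000017499.15, chromosome 11, 98907801 to 98923940, plus strand), which loads the MCM ring together with the origin recognition complex, had 32.9, 22.5, 22.8 and 26.5 CPM in the libraries labelled KO, against 5.53, 4.07, 7.01 and 6.21 CPM in those labelled WT. No library labelled WT came near the lowest one labelled KO, and the log2 difference was 2.19 (SE 0.19, adjusted p = 2.30e-06). Orc1 (ENSMUSG00000028587.18, chromosome 4, 108579423 to 108614833, plus strand), the subunit of the origin recognition complex whose level varies over the cell cycle, had 34.7, 25.2, 29.4 and 31.6 CPM in the libraries labelled KO, against 10.9, 8.02, 12.1 and 10.2 CPM in those labelled WT. Every library labelled KO was above every one labelled WT, with a difference of 1.55 on the log2 scale (SE 0.16, adjusted p = 6.95e-06). Another subunit of the complex, Orc5, had 31.3, 28.1, 27.0 and 31.4 CPM in the libraries labelled KO, against 13.9, 11.3, 12.3 and 12.3 CPM in those labelled WT, also without overlap, and rose by 1.24 on the log2 scale (SE 0.13, adjusted p = 7.31e-06). The other subunits differed less. Orc2 had 52.8, 57.8, 43.2 and 47.7 CPM with the KO label, against 31.3, 29.6, 36.9 and 33.8 CPM with the WT label, and rose by 0.62 on the log2 scale (SE 0.12, adjusted p = 0.000955). Orc6 had 42.7, 43.2, 38.5 and 40.5 CPM with the KO label, against 31.0, 30.1, 34.9 and 32.9 CPM with the WT label. The lowest library labelled KO was still above WT 3, and the log2 difference was 0.35 (SE 0.10, adjusted p = 0.0117). Orc4 had 66.6, 63.1, 53.1 and 65.8 CPM in the libraries labelled KO, against 53.2, 49.9, 59.0 and 54.9 CPM in those labelled WT. The Orc4 groups overlapped, with a log2 difference of 0.20 (SE 0.11, adjusted p = 0.141), and without KO 3 it passed at 0.29 (adjusted p = 0.035). Of the merged exons of Orc2, 29.8% overlap a gene on the opposite strand, and the sources used here do not give the strand setting of the counting.

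The pair that sets whether licensing may proceed moved unequally. Cdt1 (ENSMUSG00000006585.3, chromosome 8, 122568015 to 122573554, plus strand), the loader of the MCM ring, had 59.1, 66.0, 67.2 and 58.2 CPM in the libraries labelled KO, against 43.5, 38.8, 46.0 and 59.6 CPM in those labelled WT. The groups overlapped through WT 4, and the log2 difference was 0.42 (SE 0.13, adjusted p = 0.0175). Without WT 1 it did not pass (adjusted p = 0.0533), nor did it with upper-quartile (0.261) or ribosomal protein scaling (0.179) or with cyclic loess (0.254). Gmnn (ENSMUSG00000006715.11, chromosome 13, 24751845 to 24761923, minus strand), which encodes geminin, the inhibitor of CDT1, had 35.6, 28.3, 23.2 and 26.3 CPM in the libraries labelled KO, against 13.6, 8.89, 11.1 and 9.64 CPM in those labelled WT. Its groups did not overlap, and the difference was 1.39 on the log2 scale (SE 0.17, adjusted p = 3.03e-05). Orc6 also did not pass with upper-quartile (0.332) or ribosomal protein scaling (0.311) or with cyclic loess (0.377).

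Of 12 helicase genes, 11 rose and 1 did not pass, with a median log2 difference of 1.14. All 6 subunits of the MCM ring rose, without overlap between the groups. Mcm2 (ENSMUSG00000002870.8, chromosome 6, 88883474 to 88898780, minus strand) had 254, 271, 229 and 237 CPM in the libraries labelled KO, against 77.2, 77.6, 93.9 and 97.0 CPM in those labelled WT, a difference of 1.52 on the log2 scale (SE 0.11, adjusted p = 6.14e-07) and the largest in the ring. Mcm3 (ENSMUSG00000041859.10, chromosome 1, 20802968 to 20820312, minus strand) had 296, 312, 274 and 291 CPM in the libraries labelled KO, against 179.8, 165, 191 and 196 CPM in those labelled WT, a difference of 0.68 on the log2 scale (SE 0.10, adjusted p = 7.85e-05) and the smallest in the ring. The other subunits lay between them, with log2 differences of 1.10 for Mcm4, 1.39 for Mcm5, 1.00 for Mcm6 and 1.05 for Mcm7. Mcm4 had 191, 199, 199 and 177 CPM with the KO label, against 80.5, 90.7, 94.6 and 92.4 CPM with the WT label, and no level of the groups was shared. Mcm5 had 233, 233, 210.0 and 195 CPM in the libraries labelled KO, against 76.9, 61.9, 94.2 and 100.4 CPM in those labelled WT, and WT 2 was again the lowest library. Mcm6, whose promoter is printed above, had 252, 269, 226 and 243 CPM with the KO label, against 119, 126, 142 and 106 CPM with the WT label. Mcm7 had 298, 371, 311 and 288 CPM in the libraries labelled KO, against 138, 121, 163 and 191 CPM in those labelled WT, and its exons overlap genes on both strands over short stretches, the microRNA genes Mir25 and Mir93 among them.

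Per kilobase of merged exon, the ring subunits were less unequal in the libraries labelled KO. Mcm3 stood at 78.1 ± 4.20 CPM per kilobase in the libraries labelled KO, against 48.8 ± 3.71 CPM per kilobase in those labelled WT (SD, n = 4 each). Mcm2 stood at 35.6 ± 2.68 CPM per kilobase in the libraries labelled KO, against 12.4 ± 1.51 CPM per kilobase in those labelled WT (SD, n = 4 each). The highest subunit exceeded the lowest, which was Mcm2 in all 8 libraries, by 2.15 to 2.27 times in the libraries labelled KO and by 3.74 to 4.32 times in those labelled WT. Merged exons include parts that most transcripts lack, so the order of subunits depends on the annotation, while each subunit's own difference does not.

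**Figure D3:**
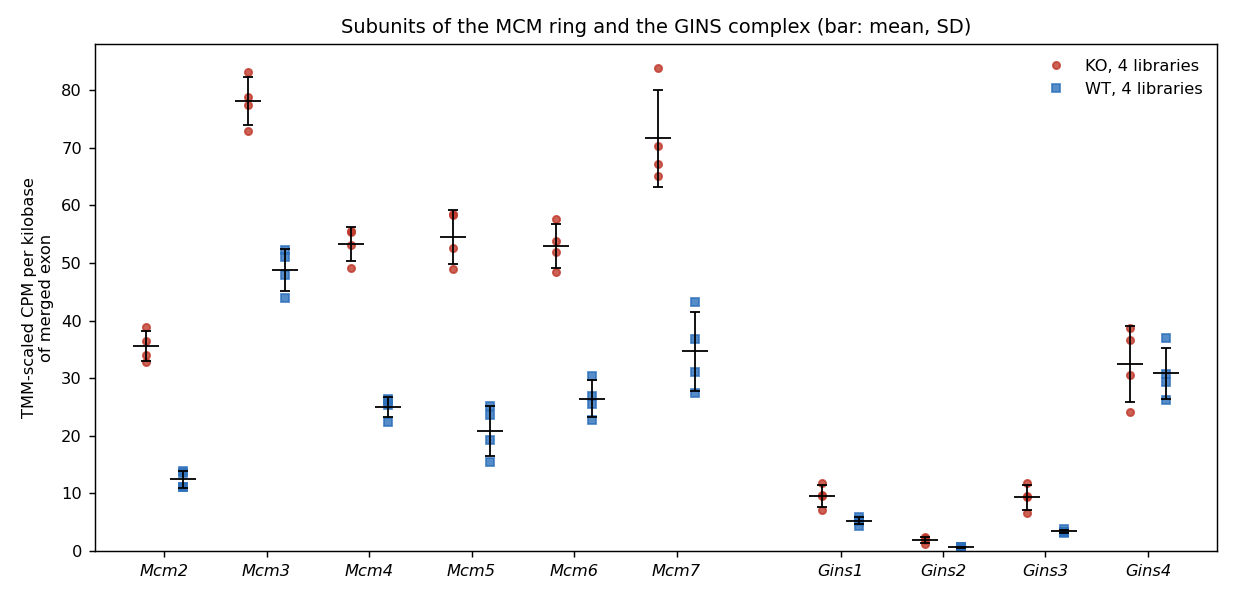
TMM-scaled CPM per kilobase of merged exon for the 6 subunits of the MCM ring and the 4 of the GINS complex, with the libraries labelled KO as circles at left and those labelled WT as squares at right, and the mean and SD as bars. The ring subunits and Gins1 to Gins3 are apart in the groups, and Gins4 overlaps.

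The factors that activate the ring differed among themselves. Cdc45 (ENSMUSG00000000028.15, chromosome 16, 18780447 to 18811987, minus strand), a part of the active helicase, had 79.6, 55.6, 65.3 and 58.7 CPM in the libraries labelled KO, against 26.2, 24.0, 27.8 and 21.7 CPM in those labelled WT, and rose by 1.38 on the log2 scale (SE 0.13, adjusted p = 5.40e-06). Mcm10, which helps to activate the helicase, had 70.4, 75.7, 77.6 and 76.5 CPM in the libraries labelled KO, against 32.8, 25.8, 35.1 and 39.4 CPM in those labelled WT. Its libraries labelled KO lay close together, and the difference was 1.17 on the log2 scale (SE 0.13, adjusted p = 1.13e-05). In the GINS complex, Gins1 had 17.8, 14.8, 10.8 and 14.3 CPM with the KO label, against 8.81, 6.68, 7.98 and 8.15 CPM with the WT label, and rose by 0.87 on the log2 scale (SE 0.18, adjusted p = 0.00126). Gins2 had 9.14, 4.88, 9.74 and 7.84 CPM with the KO label, against 2.87, 2.44, 2.24 and 2.65 CPM with the WT label. KO 2 was low among the libraries labelled KO, and the gene rose by 1.63 on the log2 scale (SE 0.24, adjusted p = 0.000119). Gins3 had 32.1, 17.8, 25.8 and 25.4 CPM with the KO label, against 9.07, 8.42, 10.3 and 8.93 CPM with the WT label, with KO 2 again the lowest of its label, and rose by 1.46 on the log2 scale (SE 0.18, adjusted p = 2.48e-05). Gins4 (ENSMUSG00000031546.6, chromosome 8, 23226616 to 23237659, minus strand) did not pass, with 49.4, 52.2, 41.3 and 32.5 CPM in the libraries labelled KO, against 49.8, 39.7, 41.4 and 35.5 CPM in those labelled WT. The range of the libraries labelled WT lay inside that of the libraries labelled KO, with a difference of 0.08 on the log2 scale (SE 0.15, adjusted p = 0.702), and with upper-quartile scaling it was -0.16. Gins2 had the fewest counts of the helicase genes, 478 over the libraries labelled KO and 185 over those labelled WT, and 67.3% of its merged exons lie opposite Gse1, so the origin of its reads is uncertain.

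Of 8 polymerase and primase genes, 6 rose, 1 was lower and 1 did not pass, with a median log2 difference of 0.66 and none at 1 or more. Pola1, the catalytic subunit of polymerase alpha, had 101, 98.3, 65.0 and 90.5 CPM with the KO label, against 51.4, 44.4, 51.1 and 38.4 CPM with the WT label, and rose by 0.94 on the log2 scale (SE 0.15, adjusted p = 0.000171). Pola2, its second subunit, had 53.1, 46.9, 46.9 and 51.9 CPM with the KO label, against 26.5, 24.4, 28.7 and 29.1 CPM with the WT label, and rose by 0.87 on the log2 scale (SE 0.11, adjusted p = 3.18e-05). In both genes the groups did not overlap. Pold1 (ENSMUSG00000038644.14, chromosome 7, 44532746 to 44548849, minus strand), the catalytic subunit of polymerase delta, had 218, 236, 252 and 201 CPM in the libraries labelled KO, against 117, 106, 119.9 and 126 CPM in those labelled WT, and rose by 0.95 on the log2 scale (SE 0.10, adjusted p = 1.13e-05). Pold2, its accessory subunit, had 10.5, 12.5, 11.1 and 12.9 CPM with the KO label, against 7.02, 6.22, 8.08 and 8.09 CPM with the WT label, and rose by 0.68 on the log2 scale (SE 0.16, adjusted p = 0.00352). Pole (ENSMUSG00000007080.14, chromosome 5, 110286306 to 110337474, plus strand), the catalytic subunit of polymerase epsilon, had 525, 517, 527 and 497 CPM in the libraries labelled KO, against 358, 315, 474 and 466 CPM in those labelled WT. The libraries labelled WT were spread here, and those labelled KO were close together just above WT 3. The log2 difference was 0.36 (SE 0.13, adjusted p = 0.033), and it did not pass without KO 1 (adjusted p = 0.0547), KO 3 (0.0523), WT 1 (0.0997) or WT 2 (0.0756). With upper-quartile and ribosomal protein scaling and cyclic loess the adjusted p of Pole was 0.44, 0.311 and 0.172. Pole2, the second subunit of that enzyme, had 5.23, 5.22, 5.02 and 4.50 CPM in the libraries labelled KO, against 5.74, 4.82, 4.87 and 6.02 CPM in those labelled WT, from 309 and 388 counts in all. Its groups overlapped, with a difference of -0.10 on the log2 scale (SE 0.19, adjusted p = 0.668).

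The subunits of primase went apart. Prim1 (ENSMUSG00000025395.14, chromosome 10, 128015168 to 128030037, plus strand), the catalytic subunit, had 55.8, 50.8, 54.2 and 47.7 CPM in the libraries labelled KO, against 30.5, 30.9, 37.8 and 34.6 CPM in those labelled WT, and rose by 0.64 on the log2 scale (SE 0.11, adjusted p = 0.000384). Prim2 (ENSMUSG00000026134.11, chromosome 1, 33453810 to 33669795, minus strand), the large subunit, had 59.0, 52.7, 49.5 and 52.7 CPM in the libraries labelled KO, against 70.6, 61.9, 75.7 and 62.0 CPM in those labelled WT. All 4 libraries labelled KO were below all 4 labelled WT, which no other of the 43 genes showed. The log2 difference of Prim2 was -0.34 (SE 0.11, adjusted p = 0.0182). It did not pass without KO 2 (adjusted p = 0.0653), KO 3 (0.0584), KO 4 (0.0642), WT 1 (0.0563) or WT 3 (0.0949), nor without a filter on low counts (0.102), and its direction was the same in these settings.

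Pcna (ENSMUSG00000027342.14, chromosome 2, 132249162 to 132253314, minus strand), the sliding clamp, had 71.3, 61.8, 54.3 and 54.9 CPM in the libraries labelled KO, against 16.0, 25.0, 21.8 and 17.7 CPM in those labelled WT. The groups were well apart, and it rose by 1.59 on the log2 scale (SE 0.15, adjusted p = 4.62e-06). Pcna has annotated pseudogenes that may share reads with it. Of the 5 genes of the clamp loader, which opens the clamp onto DNA, 3 small subunits rose without overlap. Rfc2 had 32.3, 32.5, 27.1 and 29.1 CPM with the KO label, against 18.8, 16.9, 19.6 and 19.7 CPM with the WT label, with a log2 difference of 0.69 (SE 0.12, adjusted p = 0.000382). Rfc3 had 25.8, 27.8, 22.5 and 25.9 CPM with the KO label, against 15.6, 13.4, 16.7 and 17.54 CPM with the WT label, with a log2 difference of 0.69 (SE 0.13, adjusted p = 0.000768). Rfc5 had 73.8, 74.4, 70.6 and 68.6 CPM with the KO label, against 37.4, 45.1, 47.4 and 44.1 CPM with the WT label, with a log2 difference of 0.72 (SE 0.10, adjusted p = 9.53e-05). These 3 differences were nearly equal. Rfc1, the large subunit, had 165, 163, 133 and 144 CPM in the libraries labelled KO, against 129, 122, 148 and 111 CPM in those labelled WT, a difference of 0.24 on the log2 scale (SE 0.11, adjusted p = 0.0899). Its groups overlapped, and without KO 3 or WT 3 it passed (adjusted p = 0.0363 and 0.0336). Rfc4, a small subunit, had 47.9, 50.2, 47.1 and 40.0 CPM in the libraries labelled KO, against 41.0, 41.0, 42.3 and 38.2 CPM in those labelled WT, also overlapping, with a difference of 0.19 on the log2 scale (SE 0.11, adjusted p = 0.152). With upper-quartile scaling that of Rfc4 was -0.05. Clamp and loader genes together had 4 of 6 higher, with a median log2 difference of 0.69.

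Replication protein A covers single strands as 3 subunits, and all 3 genes rose. Rpa3, the smallest subunit, had 12.6, 13.1, 11.5 and 15.5 CPM in the libraries labelled KO, against 3.69, 5.23, 5.84 and 5.37 CPM in those labelled WT, a difference of 1.39 on the log2 scale (SE 0.19, adjusted p = 5.63e-05). Rpa2, the middle subunit, had 117, 125, 105 and 103 CPM in the libraries labelled KO, against 52.7, 45.8, 60.7 and 63.2 CPM in those labelled WT, a difference of 1.02 on the log2 scale (SE 0.12, adjusted p = 2.12e-05). For both genes the groups did not overlap. Rpa1, the large subunit, had 149.6, 175, 117 and 130.4 CPM with the KO label, against 114, 107, 114 and 99.6 CPM with the WT label. It rose by 0.40 on the log2 scale (SE 0.12, adjusted p = 0.015), and did not pass with upper-quartile (0.254) or ribosomal protein scaling (0.177) or with cyclic loess (0.327). Lig1 (ENSMUSG00000056394.17, chromosome 7, 13277283 to 13311433, plus strand), the ligase that joins Okazaki fragments, had 348, 326, 306 and 323 CPM in the libraries labelled KO, against 284, 204, 304 and 264 CPM in those labelled WT. The lowest library labelled KO was just above WT 3, and the difference was 0.30 on the log2 scale (SE 0.12, adjusted p = 0.0487). Lig1 did not pass without KO 1 (0.0935), KO 2 (0.0545), KO 4 (0.0667), WT 1 (0.0594), WT 2 (0.105) or WT 4 (0.071), nor with upper-quartile (0.659) or ribosomal protein scaling (0.502) or cyclic loess (0.51). Fen1, the nuclease that trims the flaps of fragments, had 2.92, 2.95, 1.11 and 2.51 CPM in the libraries labelled KO, against 1.43, 0.987, 1.90 and 1.81 CPM in those labelled WT, from only 150 and 112 counts. Its groups overlapped, and the difference was 0.63 on the log2 scale (SE 0.35, adjusted p = 0.143). It passed without KO 3, at a log2 difference of 0.88 (adjusted p = 0.03), and with cyclic loess, at 0.98 (adjusted p = 0.0421). Of its merged exons 84.2% lie opposite other genes, Tmem258 among them, and reads may have been lost or shared there.

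To ask whether partners moved by the same amount, the log2 ratio of the counts of 2 genes was taken within each library, which removes the scaling between libraries. Of 10 such ratios, 7 differed between the groups without overlap by an exact two-sided permutation test, each with p = 0.0286, the smallest that 4 against 4 can give, and an adjusted p of 0.0408 over the 10. The pairs were chosen with earlier results of these data known, so these p-values are not an independent test. The share of other gene pairs whose ratios do not overlap was not computed. Of all genes taken singly, 23.2% lay wholly above and 25.1% wholly below, which is no background for ratios. Nothing particular to these pairs is read from the count. The ratio of Rrm2 over Rrm1 was -2.22, -2.31, -2.52 and -2.23 in the libraries labelled KO, against -5.03, -4.08, -4.47 and -4.50 in those labelled WT, a difference of 2.20. All 4 libraries labelled KO were higher. The ratio of Pcna over Rfc1 was -1.21, -1.40, -1.29 and -1.39 in the libraries labelled KO, against -3.02, -2.28, -2.76 and -2.64 in those labelled WT, a difference of 1.36. Tk1 rose against Tyms by 0.86, with log2 ratios of -1.02 ± 0.24 in the libraries labelled KO and -1.88 ± 0.23 in those labelled WT (SD, n = 4 each). Cdc6 rose against Orc1 by 0.65, with -0.21 ± 0.12 and -0.86 ± 0.13 (SD, n = 4 each) for the KO and WT labels.

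The other 3 ratios that differed were lower in the libraries labelled KO. Cdt1 over Gmnn was 0.73, 1.22, 1.53 and 1.14 in the libraries labelled KO, against 1.67, 2.12, 2.06 and 2.62 in those labelled WT. The loader gene thus had fewer counts relative to its inhibitor in all 4 libraries labelled KO, by 0.96 on the log2 scale. Prim2 over Prim1 was 0.08, 0.05, -0.13 and 0.14 in the libraries labelled KO, against 1.21, 1.00, 1.00 and 0.84 in those labelled WT, a difference of -0.98. Pole2 over Pole was -6.64, -6.62, -6.70 and -6.78 in the libraries labelled KO, against -5.96, -6.02, -6.60 and -6.27 in those labelled WT, a difference of -0.47 with WT 3 close to the libraries labelled KO. Ratios that did not pass were Mcm10 over Mcm2 at -0.33 (exact permutation p = 0.0571, adjusted p = 0.0714), Pold2 over Pold1 at -0.27 (exact permutation p = 0.0857, adjusted p = 0.0952), with -0.37 without KO 4, and Pola2 over Pola1 at -0.06 (exact permutation p = 0.686, adjusted p = 0.686). The last had SDs of 0.26 with the KO label and 0.25 with the WT label, and it changed sign without KO 2 (0.03) or WT 4 (0.06).

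**Figure D4:**
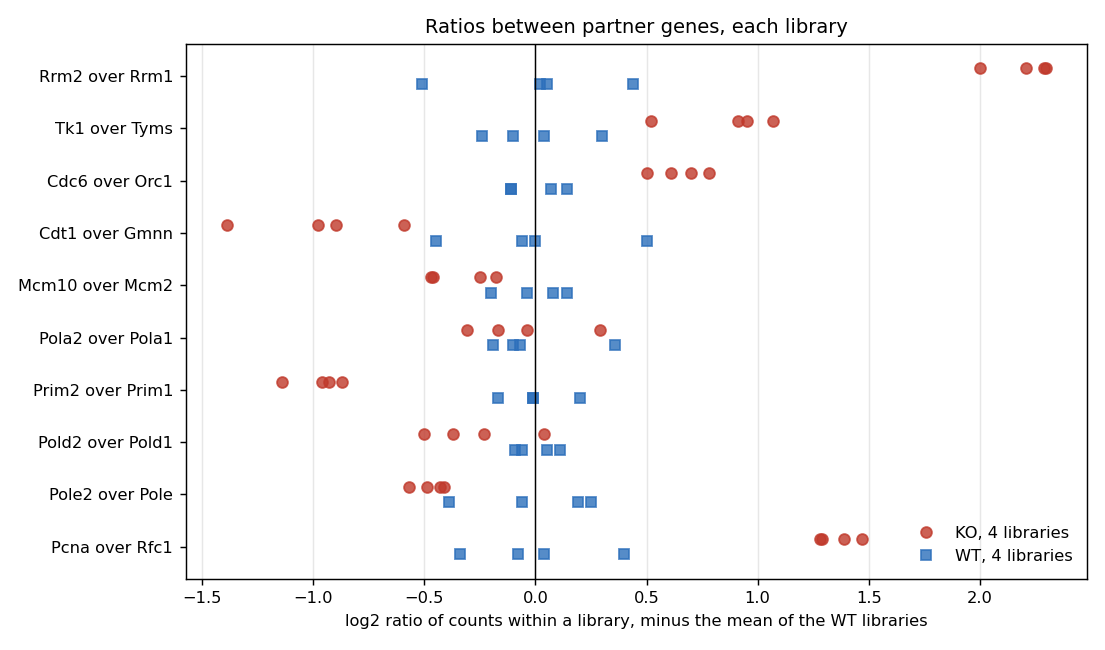
The log2 ratio of counts of partner genes within each library, minus the mean of the libraries labelled WT, with libraries labelled KO as red circles and those labelled WT as blue squares. The groups do not overlap for 7 of the 10 ratios, 4 of them higher and 3 lower with the KO label.

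Levels per kilobase of merged exon put the genes in a somewhat different order in the groups. In the libraries labelled WT the highest were Lig1, Mcm3 and Pole, and the lowest Gins2, Fen1 and Tk1. Lig1 had 76.3 ± 4.05 CPM per kilobase in the libraries labelled KO, against 61.9 ± 10.1 CPM per kilobase in those labelled WT (SD, n = 4 each). In the libraries labelled KO the highest were Mcm3, Lig1 and Mcm7, and their means ± SD overlapped, with Mcm7 at 71.6 ± 8.43 CPM per kilobase in the libraries labelled KO, against 34.6 ± 6.94 CPM per kilobase in those labelled WT (SD, n = 4 each). Rrm2 was 24 in that order with the KO label and 39 with the WT label, at 12.2 ± 1.16 CPM per kilobase in the libraries labelled KO, against 1.55 ± 0.387 CPM per kilobase in those labelled WT (SD, n = 4 each). Pcna was 14 and 22, at 25.2 ± 3.30 CPM per kilobase in the libraries labelled KO, against 8.39 ± 1.70 CPM per kilobase in those labelled WT (SD, n = 4 each). Prim2 was 30 and 17, at 9.01 ± 0.672 CPM per kilobase in the libraries labelled KO, against 11.4 ± 1.14 CPM per kilobase in those labelled WT (SD, n = 4 each). Neighbours in the order can differ by less than their SDs, such as Prim1 at 13.5 ± 0.932 CPM per kilobase in the libraries labelled KO, against 8.65 ± 0.892 CPM per kilobase in those labelled WT (SD, n = 4 each) and Orc2 at 13.1 ± 1.64 CPM per kilobase in the libraries labelled KO, against 8.53 ± 0.831 CPM per kilobase in those labelled WT (SD, n = 4 each).

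Further genes of the pathway were counted in the same way. Of 55 genes listed, Chtf8 matched 2 rows and was left out, and of the remaining 54 there were 44 higher, 1 lower and 9 not passing (median log2 difference 0.91), beside the 25.3% and 28.2% of all genes. Of 11 genes of licensing and firing 9 were higher. Ticrr, which brings the firing machinery to the loaded ring, had 122, 89.7, 110.3 and 98.2 CPM in the libraries labelled KO, against 22.5, 24.0, 25.4 and 21.5 CPM in those labelled WT, a difference of 2.17 on the log2 scale (SE 0.12, adjusted p = 1.27e-07) with no overlap. Of 14 fork factors 12 were higher and 1 lower. The subunits of ribonuclease H2, which removes ribonucleotides from DNA, went apart: Rnaseh2c rose, with 25.9, 23.5, 22.7 and 23.1 CPM in the libraries labelled KO, against 5.74, 6.39, 4.87 and 6.73 CPM in those labelled WT, a difference of 2.01 on the log2 scale (SE 0.15, adjusted p = 7.72e-07). Rnaseh2b had 22.5, 18.2, 15.1 and 17.8 CPM in the libraries labelled KO, against 27.5, 27.5, 30.4 and 18.6 CPM in those labelled WT, and its groups overlapped. Its log2 difference was -0.50 (SE 0.17, adjusted p = 0.0237), a call lost without KO 2 (0.0617), KO 3 (0.0735), KO 4 (0.0646), WT 1 (0.0629) or WT 3 (0.0957).

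Of 6 genes of alternative clamp loaders and chromatin assembly 5 were higher. Chtf18, a subunit of an alternative loader of PCNA, had 75.6, 76.2, 83.5 and 63.6 CPM in the libraries labelled KO, against 14.5, 12.0, 16.1 and 20.3 CPM in those labelled WT, a difference of 2.25 on the log2 scale (SE 0.15, adjusted p = 4.26e-07). Of 11 genes of nucleotide metabolism 9 were higher. Dtymk, the thymidylate kinase that acts after Tyms and Tk1, had 33.0, 30.6, 22.9 and 32.3 CPM in the libraries labelled KO, against 5.53, 5.34, 5.79 and 6.02 CPM in those labelled WT. The libraries labelled WT were nearly alike, and the difference was 2.39 on the log2 scale (SE 0.15, adjusted p = 2.59e-07). Of 12 genes that control entry into S phase 9 were higher and 3 did not pass (E2f2, E2f7 and Skp2), with a median of 1.28. E2f8, a repressor of the E2F family that cycling cells make in S phase, had 15.2, 16.3, 17.1 and 17.7 CPM in the libraries labelled KO, against 3.18, 5.17, 3.41 and 4.08 CPM in those labelled WT, a difference of 2.07 on the log2 scale (SE 0.18, adjusted p = 2.62e-06). Ccna2, the cyclin A2 gene, had 80.9, 91.4, 77.7 and 89.3 CPM in the libraries labelled KO, against 20.3, 21.6, 23.1 and 27.6 CPM in those labelled WT, a difference of 1.87 on the log2 scale (SE 0.12, adjusted p = 2.70e-07). Cdc25a, a phosphatase that activates CDK2, had 93.0, 88.6, 76.9 and 82.8 CPM in the libraries labelled KO, against 28.5, 27.0, 32.3 and 28.2 CPM in those labelled WT, a difference of 1.56 on the log2 scale (SE 0.11, adjusted p = 4.36e-07). In all 3 the groups did not overlap.

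**Figure D5:**
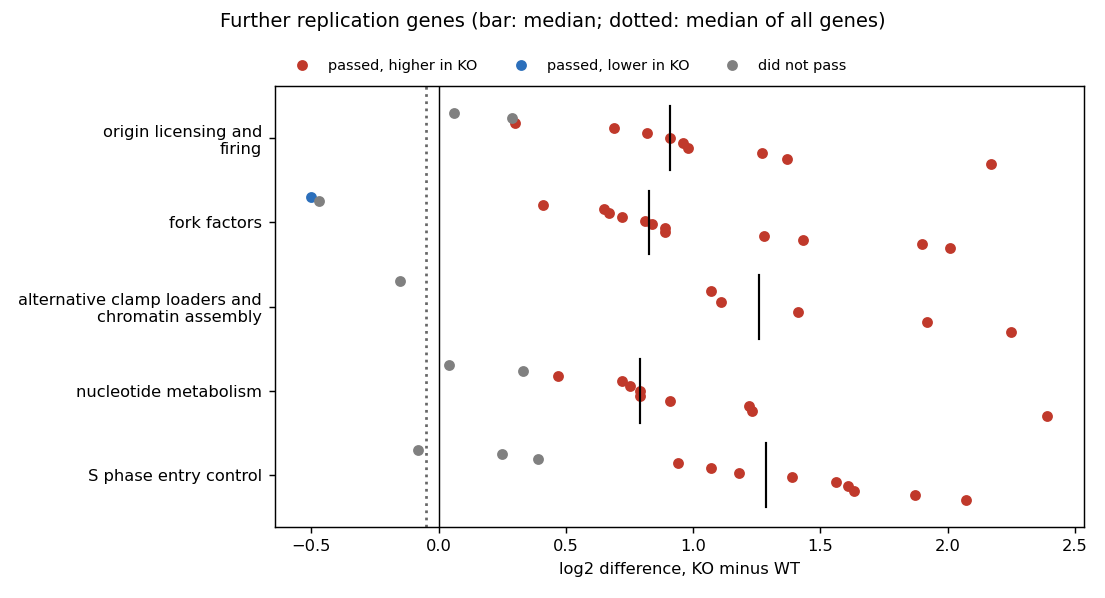
The log2 difference, KO minus WT, of 54 further genes of the pathway in 5 groups, each point a gene and each black bar a group's median, with the dotted line at the median of all genes tested (-0.05). Of the points 44 are red (passed, higher in KO), 1 is blue (Rnaseh2b) and 9 are grey (did not pass).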

How the data were processed

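RNA was sequenced from 8 libraries of E17.5 prospermatogonia, 4 labelled KO and 4 labelled WT. Per the labels' protocols, RNA from snap-frozen pellets was extracted with TRIzol and treated with DNase, and 5 ng entered a ribosome-depleted SMART-seq Pico Input library with UMIs. The deposited values are raw counts per gene, not normalized. The tools in the submitters' processing notes are STAR and Trim Galore, featureCounts 1.5.0, and DESeq2 and edgeR, with build mm10. The sources used here do not give UMI collapse, strand setting or annotation release. Of 55401 identifiers, 55141 matched GENCODE M21 without the version.

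Counts were fitted over all genes with edgeR 4.0.16 (R 4.3.3): filterByExpr, TMM, and a quasi-likelihood test with genotype as the only term. Adjusted p is Benjamini-Hochberg over all 24005 genes, passing under 0.05, and the SE is the log2 difference over the root of F. The fit was also run on simulated counts in which few genes changed, equally up and down. That run cannot test the scaling on the real counts, where many genes passed. Ratios used log2 of (count + 0.5) and exact permutation. Alternatives were DESeq2 1.42.0, limma 3.58.1, other scalings, filters and thresholds, a replicate block, a somatic marker covariate and leaving out each library. The genes, lists, motifs and ratios were chosen with earlier results of these data known. Named were all 43 genes, Tet1, the 5 largest passing differences per direction among the further genes, and up to 3 per direction of the S phase group by lowest p; any other gene was picked with its values in view. Replicates of a group differed beyond counting noise (chi-square per degree of freedom 7.34 to 26.5).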

Additional observations from a re-analysis of the deposited data

Results flagged for a closer look

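Of 138 groups of 4 libraries examined, 6 held a library that stood apart by Dixon's criterion (95% level), where chance gives about 1 in 20. For Rrm2, KO 3 was low at 28.9 CPM, with the other 3 labelled KO at 34.8 to 36.0 CPM. KO 4 was high in summed Leydig cell markers (1757 CPM), Sertoli cell markers (78.4 CPM) and erythroid markers (21.4 CPM), with the other 3 labelled KO at 13.7 to 19.9, 18.2 to 18.5 and 12.8 to 13.4 CPM. Of the Sertoli sum in KO 4, Inha alone made 58.3 CPM. WT 2 was high in summed Leydig cell markers (31.3 CPM) and Sertoli cell markers (18.9 CPM), with the other 3 labelled WT at 14.6 to 17.1 CPM and 10.9 to 12.0 CPM. WT 2 was also the library with the lowest level for 28 of the 43 replication genes among those labelled WT. Without WT 2, 34 of the 43 were higher and 1 lower, and without KO 4, 35 and 0.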

How the results depend on the processing

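The count of 36 higher genes stayed between 31 and 36 with DESeq2, limma, robust dispersion, the other scalings and filters, the somatic marker covariate and an adjusted p under 0.01, and the direction of every passing gene stayed as reported. Against a fold of 1.5 it was 22, with 0 lower, 0 further genes lower and 6297 of all genes passing. The 1 lower gene became 0 without a low-count filter and under the stricter p, and the 1 lower further gene became 2 with upper-quartile scaling and cyclic loess and 0 under the stricter p. Leaving out 1 library at a time gave 33 to 38 higher and 0 to 1 lower genes, 43 to 45 higher and 0 to 1 lower further genes, and 11313 to 13265 genes passing in all. Same-numbered libraries did not all deviate together (correlations of -0.213 to 0.148), so pairing by number was not assumed. The library names of KO 1 and WT 1 (correlation 0.148) hold a number in common whose meaning the labels do not give, and pairing of these was not tested apart. With the replicate number as a block 35 genes were higher, 1 was lower and Lig1 lost its call (adjusted p = 0.0666), as it did with limma (0.0515) and the stricter filter (0.0734). Genes that did not pass changed sign: Gins4 with limma (-0.03), upper-quartile (-0.16) and ribosomal protein scaling (-0.13) and cyclic loess (-0.19); Orc4 with upper-quartile scaling (-0.04) and loess (-0.07); Rfc4 with upper-quartile (-0.05) and ribosomal protein scaling (-0.00432) and loess (-0.07); and Pole2 (0.07) and Rfc1 (-0.00949) with loess. The cause was not tested. Ratios kept their calls with a pseudocount of 5, and Pola2 over Pola1 ranged from -0.17 to 0.06, changing sign without KO 2 (0.03) and WT 4 (0.06); 3 against 4 cannot reach an exact p under 0.0571. Fen1, Gins2, Pole2 and Tk1 rest on the fewest counts of the 43 genes.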
